A study of Mus musculus with 7 samples.

Results

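The 40 antioxidant and thiol redox genes described here were a fixed list of superoxide, peroxide, thioredoxin, glutathione and metallothionein genes with the regulators of NRF2. They were found by symbol in a table of 55401 genes, and all 40 were present and passed the filter on low counts. The RNA came from bleomycin-challenged mice lungs, 4 from mice given bleomycin alone (BLM) and 3 from mice given hyperbaric oxygen (BLM+HBO), with 1 library per mouse. All were male C57BL/6 mice, 6 to 8 weeks old, that had received bleomycin, an antibiotic that injures the lung, into the airways. HBO is pure oxygen breathed under pressure, here at 2.5 ATA for 90 min per day over 14 days, starting 7 days after bleomycin. Lungs of both groups were collected on day 21. The records describe BLM mice as placed in the unpressurized chamber, whereas the Supplementary methods call the control untreated. Mice without bleomycin are not analysed here, so the comparison asks how redox genes differed with HBO within the injured lung. Mice that lost too little weight after bleomycin had been excluded by the authors.

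Cells make superoxide and hydrogen peroxide during respiration and when oxygen is high. Superoxide dismutases turn superoxide into hydrogen peroxide, which catalase, glutathione peroxidases and peroxiredoxins then remove. Most peroxiredoxins draw electrons from thioredoxin and most glutathione peroxidases from glutathione, and both of these draw in turn on NADPH. Metallothioneins are small cysteine-rich proteins that bind zinc and copper and react with oxidants. NRF2 (encoded by Nfe2l2) switches on many of these genes through a sequence called the antioxidant response element (ARE), and Keap1 marks NRF2 for degradation. MTF1 drives the metallothioneins through metal response elements (MRE).

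The promoters of the metallothioneins are shown because both genes were lower in BLM+HBO, and capitals mark the letters TGCACNC or TGCGCNC, the core of the MRE, on either strand. Each run is the 250 bases before the RefSeq start of the gene on GRCm38.p6, plus strand, at chr8:94178839-94179088 for Mt1 and chr8:94172368-94172617 for Mt2.
Mt1: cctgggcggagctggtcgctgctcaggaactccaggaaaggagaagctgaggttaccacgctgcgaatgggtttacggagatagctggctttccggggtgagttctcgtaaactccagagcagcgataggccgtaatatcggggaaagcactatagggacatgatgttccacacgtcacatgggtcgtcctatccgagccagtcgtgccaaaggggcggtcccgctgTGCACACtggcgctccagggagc
Mt2: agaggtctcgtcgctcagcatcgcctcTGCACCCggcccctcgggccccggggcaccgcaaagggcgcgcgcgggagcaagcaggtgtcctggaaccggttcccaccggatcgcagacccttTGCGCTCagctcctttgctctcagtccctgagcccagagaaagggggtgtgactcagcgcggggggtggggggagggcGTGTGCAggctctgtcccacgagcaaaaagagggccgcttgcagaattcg
The Mt2 window held 3 matches and the Mt1 window 1, and 395 of 27025 genes (1.46%) held 3 or more. Of the 3 annotated Mt1 transcripts in GENCODE vM21, 2 start 129 and 159 bases after the first, so the bases just before those starts lie outside this window. Of the 2 annotated Mt2 transcripts, the later starts 196 bases after the first, so the same holds for Mt2. Over the members, 9 of 36 (25.0%) had an MRE match, against 23.8% of all genes.

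The ARE core, TGACNNNGC on either strand, was found in the same window of 8 of 36 members (22.2%) and of 3112 of 27025 genes (11.5%). Sod3, Prdx6, Gclc and Gsr had no entry in the RefSeq promoter table. Only this spelling of the core was searched, so a member without a match may still hold another spelling. The 8 sites are shown because they hold a core that NRF2 is known to read. The match is in capitals with 10 bases on each side, on the strand of the gene.
Nfe2l2 (chr2:75704885-75704913, minus strand): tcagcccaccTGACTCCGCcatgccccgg
Gclm (chr3:122245413-122245441, plus strand): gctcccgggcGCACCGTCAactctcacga
Prdx1 (chr4:116685456-116685484, plus strand): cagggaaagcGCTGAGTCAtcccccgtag
Sesn2 (chr4:132510474-132510502, minus strand): cgcagcgggcTGACAGAGCcgggcgagcg
Mt2 (chr8:94172529-94172557, plus strand): aaagggggtgTGACTCAGCgcggggggtg
Txnrd1 (chr10:82859104-82859132, plus strand): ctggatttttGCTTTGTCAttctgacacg
Sod1 (chr16:90220696-90220724, plus strand): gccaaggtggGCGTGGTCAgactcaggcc
G6pdx (chrX:74428919-74428947, minus strand): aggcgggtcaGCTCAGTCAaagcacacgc
A match is a run of letters and not a measured binding site. Of these 8 genes, Mt2 was at unadjusted P below 0.05 between the groups, and the log2 fold changes (LFC, BLM+HBO against BLM) of the other 7 lay between -0.16 and 0.22.

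Counts summed to between 18157161 and 26365969 per mouse. Levels are given as CPM, the count relative to the TMM-scaled library size, and levels of different genes are compared only as TPM, which also divides by the exon length. Lung epithelial markers were high, and the summed level of 8 alveolar type II (AT2) genes was 9552 to 17369 CPM in BLM and 12007 to 29100 CPM in BLM+HBO. Heart muscle markers were also present, and 8 of 9 were higher in BLM+HBO at unadjusted P below 0.05, with sums of 67.6 to 188 CPM in BLM and 165 to 716 CPM in BLM+HBO. All 6 fibroblast markers were lower, with sums of 5888 to 9714 CPM in BLM and of 1887, 6331 and 3315 CPM in BLM+HBO 1, 2 and 3. In bulk tissue, fewer cells of a type and less RNA per cell cannot be told apart.

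Gpx3 (the secreted glutathione peroxidase of plasma) was the most abundant member, with a mean of 2643 TPM over the 7 mice. Gpx1 (the cytosolic glutathione peroxidase) followed at 957 TPM, Gpx4 (which reduces lipid peroxides in membranes) at 620 TPM, Txn1 (cytosolic thioredoxin) at 592 TPM and Prdx6 (a peroxiredoxin abundant in lung) at 590 TPM. Gpx4, Txn1 and Prdx6 overlapped in their ranges over the mice. Mt1 came next at 524 TPM, and Mt2 was 39th of 40 at 8.11 TPM, an uncertain level as described below. The exon length merges all annotated transcripts of a gene, with 1246 bases for Mt1 and 588 for Mt2. The order by TPM therefore depends in part on the annotation. Slc7a11 (the cystine importer) was lowest at 2.52 TPM. The summed CPM of the 40 genes was 7256 to 8942 in BLM and 6833 to 7588 in BLM+HBO. Without Gpx3 the sums were 5663 to 6688 CPM and 5898 to 6150 CPM, so the range of BLM+HBO lay inside that of BLM.

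**Figure D1:**
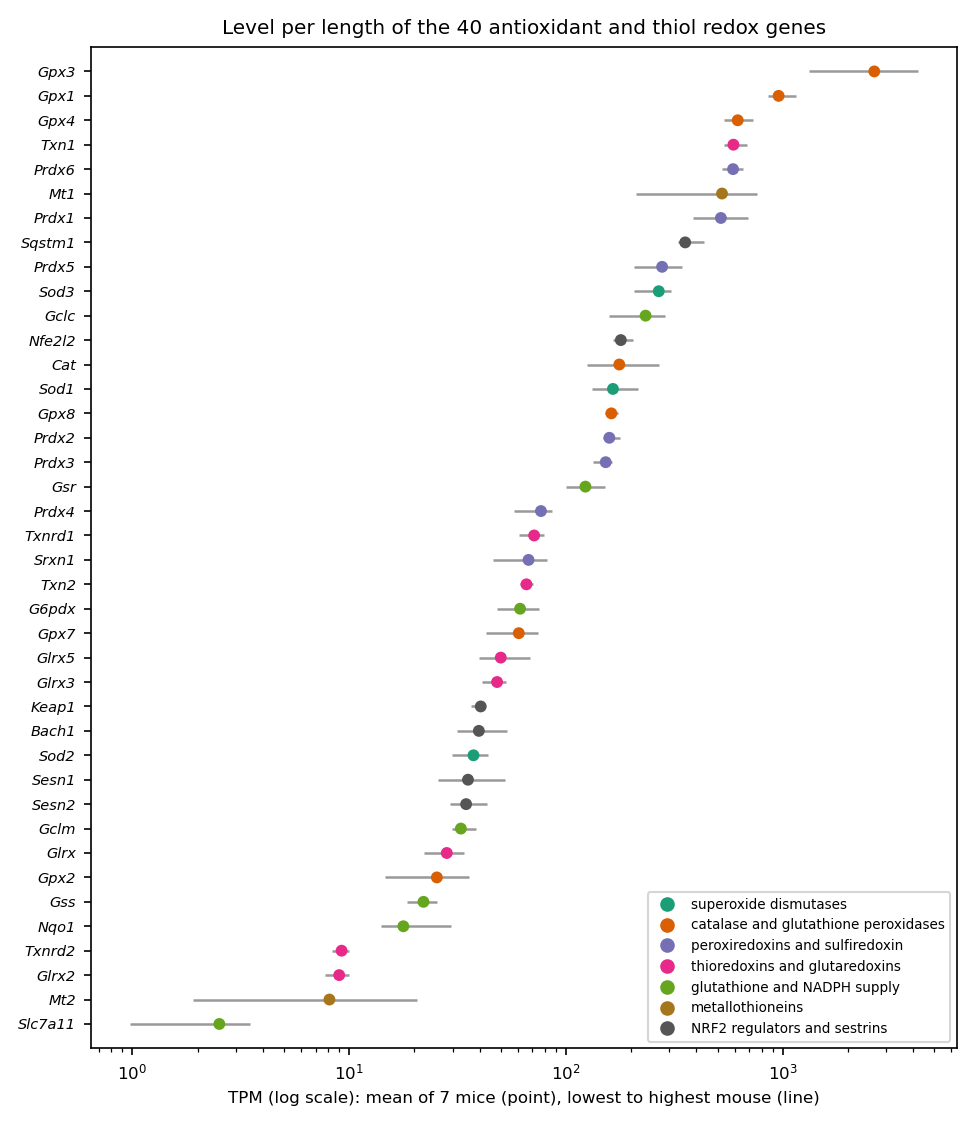
Level per length of the 40 genes on a log axis of TPM, with the mean of the 7 mice as a point and the lowest to the highest mouse as a line, coloured by role. Gpx3 is highest at a mean of 2643 TPM and Slc7a11 lowest at 2.52 TPM, and the longest line belongs to Mt2.

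The comparison of BLM+HBO with BLM found few differences among these genes. By edgeR's quasi-likelihood test, 7 of 40 members (17.5%) were at unadjusted P below 0.05, against 10.7% of the 17465 genes tested. Cat (catalase) was higher in BLM+HBO, which makes 2.5% of the members against 5.11% of all genes. Gpx3, Gpx7, Prdx4, Glrx, Mt1 and Mt2 were lower, which makes 15% of the members against 5.54% of all genes. Gpx3, Mt1 and Mt2 also passed a fold change of 1.5, which is 7.5% of the members against 6.29% of all genes (2.89% lower and 3.4% higher). After Benjamini-Hochberg adjustment over all genes, no member and no other gene was at adjusted P below 0.05 by edgeR, and the lowest adjusted P was 0.423. By DESeq2, 128 genes (0.733%) were at adjusted P below 0.05, none of them a member, and 8 members were at unadjusted P below 0.05, against 11.7% of all genes. The additional member was Gclc. The median LFC was -0.04 over the members and 0.01 over all genes tested. In 27 of 40 members the LFC lay within 0.2 of 0. The single mouse left out moved the count of members between 3 and 10, with 3 without BLM 1, 4 without each of BLM 2, BLM+HBO 1 and BLM+HBO 3, and 10 without BLM+HBO 2. The share of all genes at that threshold moved as well, to 6.81% without BLM 1, 7.05% without BLM 2, 5.7% without BLM+HBO 1, 7.14% without BLM+HBO 3 and 15.9% without BLM+HBO 2.

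**Figure D2:**
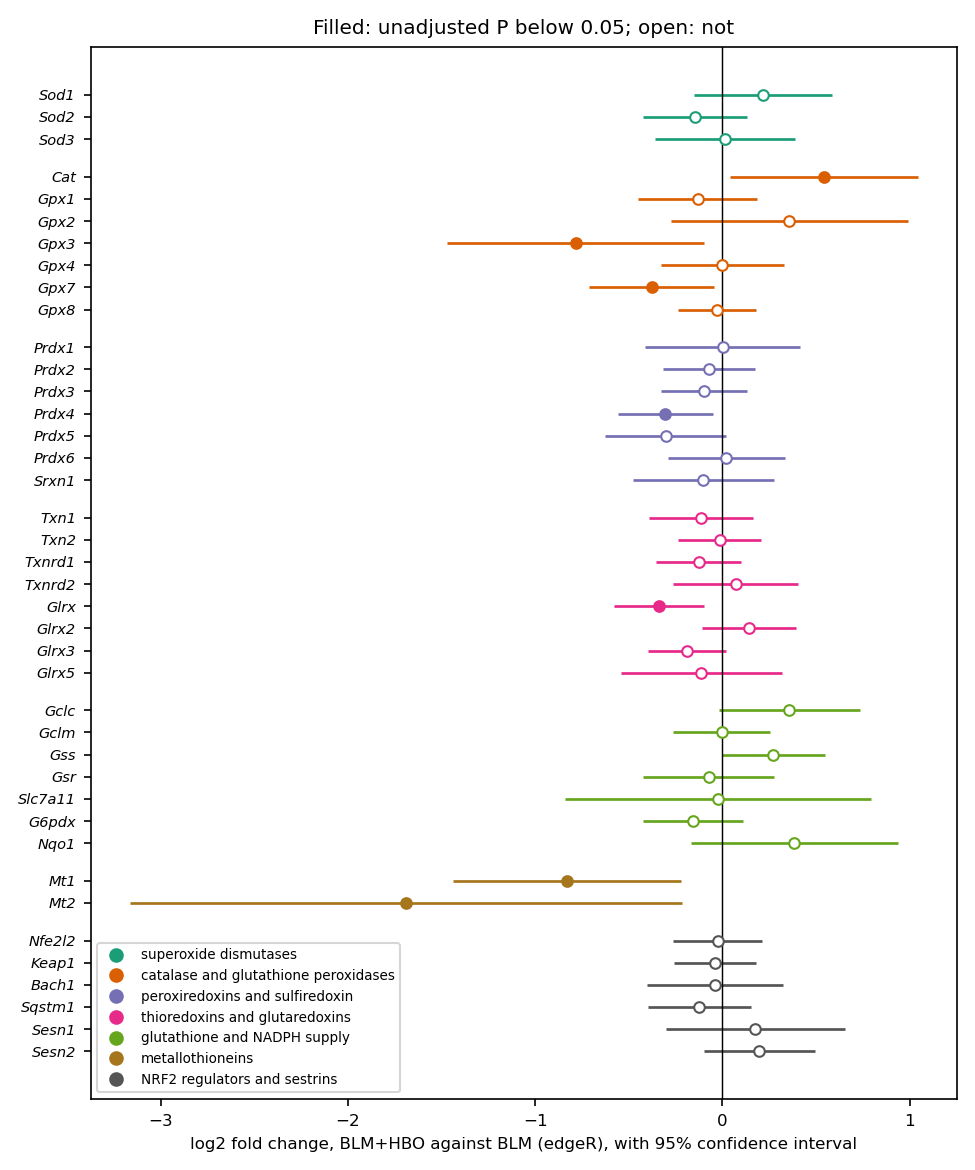
Log2 fold change of each member in BLM+HBO against BLM by edgeR, with its 95% confidence interval as a line, grouped and coloured by role. Filled points are the 7 members at unadjusted P below 0.05: Cat lies to the right at 0.54, Mt1 and Mt2 lie to the left at -0.83 and -1.69, and 27 of 40 points lie within 0.2 of 0.

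The superoxide dismutases did not pass the test. Sod1 (the cytosolic copper and zinc enzyme) had 202 ± 28.5 CPM in BLM (SD, n = 4) against 235 ± 48.4 CPM in BLM+HBO (SD, n = 3). Sod2 (the mitochondrial manganese enzyme) had 129 ± 14.7 CPM in BLM (SD, n = 4) against 116 ± 12.9 CPM in BLM+HBO (SD, n = 3). Sod3 (the extracellular enzyme) had 329 ± 62.8 CPM in BLM (SD, n = 4) against 332 ± 40.7 CPM in BLM+HBO (SD, n = 3). Their LFCs were 0.22, -0.15 and 0.01, with standard errors (SE) of 0.16, 0.12 and 0.17. The 95% confidence intervals ran from -0.15 to 0.59 for Sod1, from -0.43 to 0.13 for Sod2 and from -0.36 to 0.39 for Sod3, so differences within these bounds could not be told from 0. Without BLM+HBO 2, Sod1 was at unadjusted P below 0.05 with an LFC of 0.36.

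Cat encodes catalase, the peroxisomal enzyme that splits hydrogen peroxide (ENSMUSG00000027187.10, GRCm38 chromosome 2, 103453849 to 103485160). Its level was 111, 164, 112 and 123 CPM in BLM 1 to 4 and 199, 120 and 238 CPM in BLM+HBO 1 to 3. BLM+HBO 1 and 3 lay above every BLM mouse, while BLM+HBO 2 lay below BLM 2 and BLM 4. The means were 128 ± 24.8 CPM in BLM (SD, n = 4) against 186 ± 59.7 CPM in BLM+HBO (SD, n = 3), an LFC of 0.54 (SE 0.22, 95% confidence interval 0.04 to 1.04). The adjusted P values were 0.453 (edgeR) and 0.317 (DESeq2). The call was lost under limma-trend and when BLM 1 (0.48), BLM 3 (0.49), BLM 4 (0.53), BLM+HBO 1 (0.49) or BLM+HBO 3 (0.32) was left out, with the LFC without that mouse in parentheses. Summed AT2 markers were 25120, 12007 and 29100 CPM in BLM+HBO 1, 2 and 3, the order of Cat in these mice, and 1 of the 8 AT2 genes was at unadjusted P below 0.05. Club cell markers summed to 14197, 9739 and 19555 CPM in the same mice and to 5766 to 12535 CPM in BLM. Of these 5 genes, 2 were higher at unadjusted P below 0.05, while Scgb3a1 and Bpifa1 had LFCs of -1.13 and -1.18 that did not pass the test. Ciliated cell markers summed to 508, 333 and 509 CPM in BLM+HBO 1 to 3, and endothelial markers to 2936, 2250 and 2893 CPM. BLM+HBO 2 was thus lowest of its group in these lists too. In BLM 1 to 4 the ciliated sums were 291, 258, 504 and 292 CPM, lowest in BLM 2, the BLM mouse with the highest Cat. Endothelial sums were 2055, 2399, 2137 and 2684 CPM in BLM 1 to 4. Alveolar type I (AT1) markers summed to 4668, 4672 and 5242 CPM in BLM+HBO 1 to 3, lowest in BLM+HBO 1. Every marker of these lists had reads, and their part in the level of Cat was not tested.

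Gpx3 (ENSMUSG00000018339.11, chromosome 11, 54902453 to 54910377) was at 2311, 2576, 1433 and 1356 CPM in BLM 1 to 4 and at 796, 1614 and 935 CPM in BLM+HBO 1 to 3. BLM+HBO 1 and 3 lay below every BLM mouse, and BLM+HBO 2 lay between the high and the low pair of BLM mice. The means were 1919 ± 616 CPM in BLM (SD, n = 4) against 1115 ± 438 CPM in BLM+HBO (SD, n = 3), which is 1.72-fold lower in BLM+HBO. The LFC was -0.78 (SE 0.31, 95% confidence interval -1.47 to -0.10). Adjustment over all genes gave P values of 0.440 by edgeR and 0.191 by DESeq2. Leaving out BLM 1 (-0.68), BLM 2 (-0.61), BLM+HBO 1 (-0.59) or BLM+HBO 3 (-0.67) lost the call.

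Markers of alveolar macrophages summed to 1278, 2030, 753 and 559 CPM in BLM 1 to 4, and BLM 1 and 2 were also the mice with the highest Gpx3. In BLM+HBO the sums were 539 to 723 CPM, and of 6 genes tested in this list 2 were lower and 1 was higher at unadjusted P below 0.05. The LFC was above 0 in 4 of these 6 genes, with a median of 0.18, so the sum does not stand for the whole list. The fibroblast sum was lowest in BLM+HBO 1 and 3, as was Gpx3. Every marker of these lists had reads, and their part in the level of Gpx3 was not tested.

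Gpx7 encodes a glutathione peroxidase of the endoplasmic reticulum that takes part in protein folding (ENSMUSG00000028597.11, chromosome 4, 108400390 to 108406961). It was at 29.8, 32.6, 27.7 and 24.3 CPM in BLM 1 to 4 and at 18.4, 24.6 and 22.8 CPM in BLM+HBO 1 to 3. The groups overlapped because BLM+HBO 2 lay just above BLM 4. The LFC was -0.38 (SE 0.15), with 28.6 ± 3.5 CPM in BLM (SD, n = 4) against 22 ± 3.2 CPM in BLM+HBO (SD, n = 3). The adjusted P by edgeR was 0.440. The call was lost without BLM 1 (-0.36), BLM 2 (-0.31) or BLM+HBO 1 (-0.27). BLM+HBO 1, the mouse with the lowest Gpx7, also had the lowest fibroblast sum, and the part of the fibroblast markers in Gpx7 was not tested. Gpx8, the related enzyme of the same compartment, was at 53.7 to 60.1 CPM in BLM and 53.9 to 57.8 CPM in BLM+HBO. Its highest mouse was 1.12 times its lowest, the narrowest spread of the 40 genes.

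The remaining glutathione peroxidases did not pass the test. Gpx1 was at 417, 482, 574 and 420 CPM in BLM 1 to 4 and at 411, 465 and 418 CPM in BLM+HBO 1 to 3, an LFC of -0.13 (SE 0.14). Gpx4 was at 292, 358, 434 and 329 CPM in BLM and at 375, 323 and 361 CPM in BLM+HBO, and the means were 353 CPM in both groups. The 95% confidence interval of the LFC of Gpx4 ran from -0.33 to 0.33. For both genes BLM 3 was the highest mouse. Gpx2 (the enzyme known from gut epithelium) was at 16 to 38 CPM in BLM and 23.1 to 38.1 CPM in BLM+HBO, an LFC of 0.36 (SE 0.28). Without BLM 3, its highest BLM mouse, the LFC was 0.66, at unadjusted P below 0.05. Gpx2 and Gpx4 have annotated pseudogenes, and the counting could have dropped reads that these copies share, so their levels are uncertain.

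**Figure D3:**
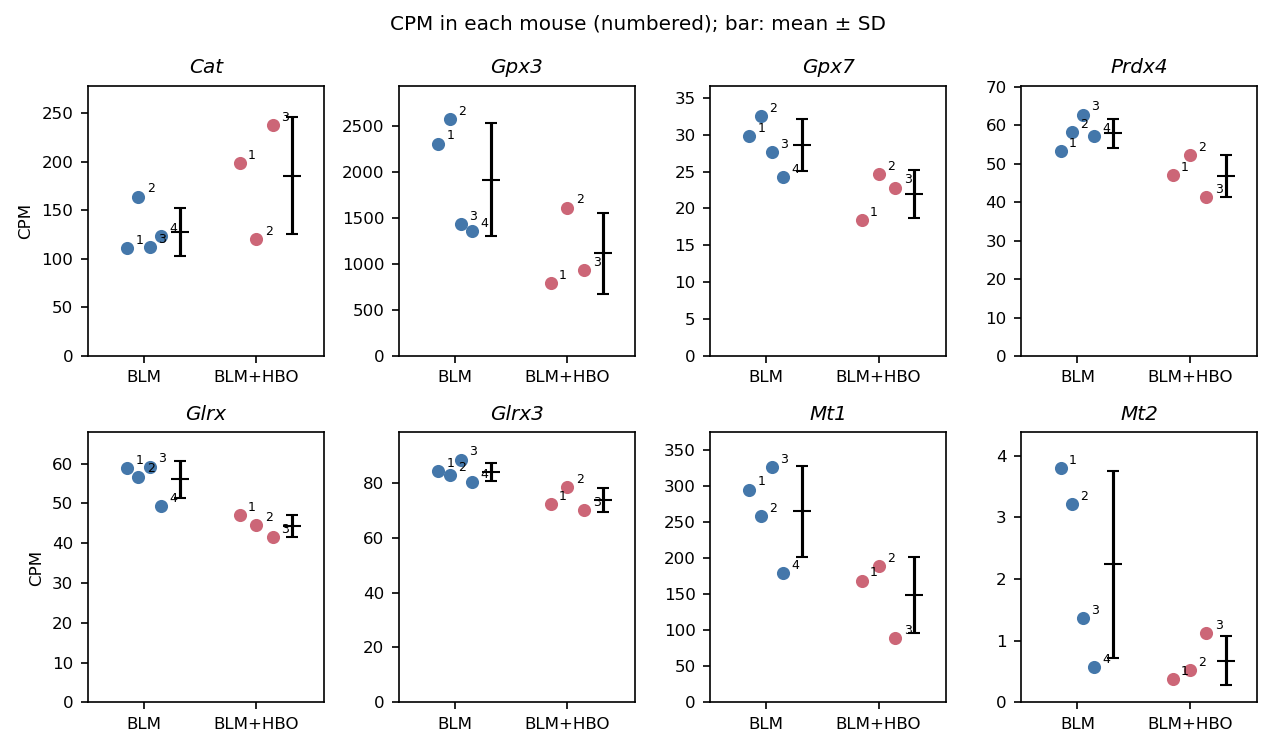
CPM in each mouse, numbered, for the 7 members at unadjusted P below 0.05 and for Glrx3, with the mean and SD of 4 BLM and 3 BLM+HBO mice beside the points and each axis starting at 0. The groups do not overlap for Prdx4, Glrx and Glrx3, and BLM+HBO 2 lies among the BLM mice for Cat, Gpx3, Gpx7 and Mt1.

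Among the peroxiredoxins and sulfiredoxin, 1 of 7 passed the test. Prdx4 (the peroxiredoxin of the endoplasmic reticulum, ENSMUSG00000025289.15, chromosome X, 155323918 to 155340754) was at 53.4, 58.2, 62.8 and 57.2 CPM in BLM 1 to 4. In BLM+HBO 1 to 3 it was at 47.1, 52.3 and 41.4 CPM, each below the lowest BLM mouse. The LFC was -0.30 (SE 0.11), with 57.9 ± 3.86 CPM in BLM (SD, n = 4) against 46.9 ± 5.46 CPM in BLM+HBO (SD, n = 3). Its adjusted P was 0.436 (edgeR), and the call was lost without BLM 3 (-0.26) or BLM+HBO 3 (-0.22). Groups that did not overlap were found for 3 members in all (7.5%), Prdx4, Glrx and Glrx3, each lower in BLM+HBO. The background was 8.77% of all genes in either direction and 4.72% in the lower direction.

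Prdx6, a lung peroxiredoxin with a single reactive cysteine, was at 797, 1070, 946 and 906 CPM in BLM 1 to 4 and at 963, 856 and 1012 CPM in BLM+HBO 1 to 3. The groups overlapped, with an LFC of 0.02 (SE 0.14). Prdx5 (found in mitochondria, peroxisomes and cytosol) had 213 ± 32.6 CPM in BLM (SD, n = 4) against 173 ± 20.3 CPM in BLM+HBO (SD, n = 3). Its LFC of -0.30 (SE 0.14) did not pass the test (edgeR, adjusted P 0.494), although it did without BLM 4 (-0.39). Prdx1 (0.001), Prdx2 (-0.07) and Prdx3 (-0.10), the cytosolic pair and the mitochondrial enzyme, had LFCs near 0. Prdx1 reached 671 CPM in BLM+HBO 2, its highest mouse, and 400 CPM in BLM+HBO 3, its lowest. Srxn1 (sulfiredoxin, which repairs overoxidized peroxiredoxins) had the same highest and lowest mice, at 73.2 and 44.2 CPM, and an LFC of -0.10 (SE 0.17). Prdx2 and Prdx6 have processed copies in the annotation, and exons of other genes cover 11.5% of Prdx2 and 19.1% of Prdx5 on the opposite strand, so these levels are uncertain. Only copies named after a member were looked for, so other members may have copies too.

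Of the 8 thioredoxin and glutaredoxin genes, Glrx passed the test. Glrx (glutaredoxin 1, which removes glutathione from protein thiols, ENSMUSG00000021591.8, chromosome 13, 75839868 to 75850154) was at 58.9, 56.8, 59.3 and 49.3 CPM in BLM 1 to 4. In BLM+HBO 1 to 3 it was at 47.2, 44.5 and 41.5 CPM, so the groups did not overlap, and BLM 4 was the BLM mouse nearest to them. The means were 56.1 ± 4.66 CPM in BLM (SD, n = 4) against 44.4 ± 2.81 CPM in BLM+HBO (SD, n = 3), an LFC of -0.34 (SE 0.11, 95% confidence interval -0.58 to -0.10). Glrx had the smallest P of the 40 members by edgeR, and after adjustment P was 0.423 (edgeR) and 0.183 (DESeq2). With each mouse left out in turn, Glrx stayed at unadjusted P below 0.05 and its LFC lay between -0.39 and -0.29.

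Glrx3 (a glutaredoxin of cytosolic iron handling) was at 84.2, 82.7, 88.4 and 80.3 CPM in BLM 1 to 4 and at 72.3, 78.4 and 70.0 CPM in BLM+HBO 1 to 3. Its groups did not overlap, and its LFC of -0.19 (SE 0.09) did not pass the test (edgeR, adjusted P 0.504). Txn1 was at 182, 216, 247 and 205 CPM in BLM and at 187, 194 and 209 CPM in BLM+HBO, an LFC of -0.11 (SE 0.12). The other members, Txn2 and Txnrd2 of mitochondria, Txnrd1 of the cytosol, and Glrx2 and Glrx5, which handle thiols and iron-sulfur clusters in mitochondria, had LFCs between -0.13 and 0.14. Txn2 had one of the tightest ranges, at 81.2 to 97.8 CPM over the 7 mice.

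None of the 7 genes of glutathione and NADPH supply passed the edgeR test. Gclc (the catalytic subunit of the enzyme that limits glutathione synthesis) was nearest, at 232, 201, 303 and 297 CPM in BLM 1 to 4 and at 357, 279 and 357 CPM in BLM+HBO 1 to 3. BLM+HBO 1 and 3 lay above every BLM mouse. The LFC was 0.36 (SE 0.17, 95% confidence interval -0.02 to 0.73), and the adjusted P was 0.489 (edgeR). DESeq2, unlike edgeR, put Gclc just inside the unadjusted threshold, as did edgeR without BLM 3 (0.44), BLM 4 (0.43) or BLM+HBO 2 (0.47). Gclm (the modifier subunit of the same enzyme) had 68.0 ± 7.04 CPM in BLM (SD, n = 4) against 67.8 ± 5.72 CPM in BLM+HBO (SD, n = 3). Other genes, among them a processed pseudogene on the same strand, cover 4.7% of the Gclm exon bases. The ratio of Gclc to Gclm CPM, chosen after the values were seen, was 2.94 to 4.998 in BLM and 4.32 to 5.56 in BLM+HBO, with BLM 1 and 2 at 3.03 and 2.94.

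Gss (glutathione synthetase) had 39.5 ± 4.89 CPM in BLM (SD, n = 4) against 47.7 ± 3.90 CPM in BLM+HBO (SD, n = 3). Its LFC was 0.27 (SE 0.12) and its adjusted P 0.471 (edgeR). It was at unadjusted P below 0.05 without BLM 3 (0.36) or BLM+HBO 2 (0.34). Other genes cover 15.4% of its exon bases, so its level is uncertain. Gsr (glutathione reductase) and G6pdx (the NADPH-making glucose-6-phosphate dehydrogenase) had LFCs of -0.07 (SE 0.16) and -0.16 (SE 0.12), and Ikbkg overlaps 13.6% of the G6pdx exon bases on the opposite strand. Without BLM+HBO 1, its highest mouse, Gsr had an LFC of -0.29 at unadjusted P below 0.05. Slc7a11 varied 3.52-fold over the mice, from 9.32 to 14.8 CPM in BLM and with 16.2, 13.5 and 4.61 CPM in BLM+HBO 1 to 3. BLM+HBO held both its highest and its lowest mouse, and the 95% confidence interval of its LFC ran from -0.84 to 0.79. Nqo1 (the quinone reductase used as a readout of NRF2) was at 6.95 to 8.51 CPM in BLM and at 15.2, 7.56 and 8.89 CPM in BLM+HBO 1 to 3. The difference rested on a single mouse, BLM+HBO 1, since the LFC was 0.38 (SE 0.25) with it and 0.031 without it. Without BLM+HBO 2 it was 0.57, at unadjusted P below 0.05.

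Both metallothioneins were lower in BLM+HBO. Mt1 (ENSMUSG00000031765.8, chromosome 8, 94179082 to 94180327) was at 295, 258, 327 and 180 CPM in BLM 1 to 4 and at 169, 189 and 89.2 CPM in BLM+HBO 1 to 3. BLM 4 lay among the BLM+HBO mice, and the other 3 BLM mice lay above them. The means were 265 ± 63.3 CPM in BLM (SD, n = 4) against 149 ± 52.8 CPM in BLM+HBO (SD, n = 3), which is 1.78-fold lower. The LFC was -0.83 (SE 0.27, 95% confidence interval -1.44 to -0.22). After adjustment, P was 0.423 with edgeR and 0.110 with DESeq2. With each mouse left out in turn, Mt1 stayed at unadjusted P below 0.05, and its LFC lay between -1.04 without BLM+HBO 2 and -0.57 without BLM+HBO 3.

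Mt2 (ENSMUSG00000031762.7, chromosome 8, 94172664 to 94173568) had 69, 57, 25 and 11 reads in BLM 1 to 4 and 7, 11 and 30 reads in BLM+HBO 1 to 3. This was 3.80, 3.21, 1.37 and 0.579 CPM against 0.373, 0.527 and 1.12 CPM, with means of 2.24 ± 1.52 CPM in BLM (SD, n = 4) and 0.675 ± 0.397 CPM in BLM+HBO (SD, n = 3). BLM 4 lay with the BLM+HBO mice, and BLM+HBO 3, which had the lowest Mt1, had the highest Mt2 of its group. The LFC was -1.69 (SE 0.66, 95% confidence interval -3.16 to -0.22). Adjusted for all genes, P was 0.440 (edgeR), and leaving out BLM 1 (-1.31), BLM 2 (-1.47), BLM+HBO 1 (-1.41) or BLM+HBO 2 (-1.54) lost the call.

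The level of Mt2 is uncertain. The antisense gene Gm45774 covers 432 of its 588 exon bases (73.5%) on the opposite strand, and the authors counted without strand and left out reads that overlap more than 1 gene. Reads from the shared bases could therefore be counted for neither gene, and 26.5% of the Mt2 exon bases remained. Gm45774 itself had 1 to 17 reads per mouse. No exon base of Mt1 is shared with another gene.

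**Figure D4:**
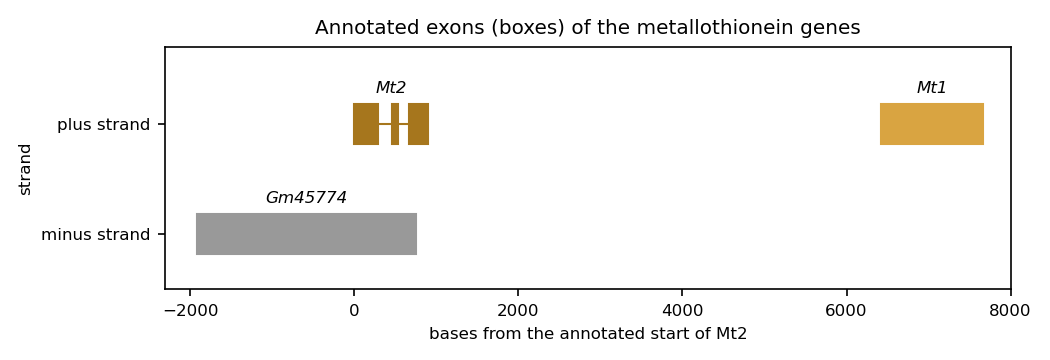
Annotated exons of Mt2, Mt1 and the antisense gene Gm45774, drawn as boxes to scale against the distance in bases from the annotated start of Mt2, with transcripts of a gene merged. Gm45774 on the minus strand runs from -1916 to 748 and covers 73.5% of the Mt2 exon bases, while Mt1, from 6418 to 7663, stands clear of it.

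The regulators of NRF2 and the sestrins did not pass the test. Nfe2l2 was at 208 to 247 CPM in BLM and 213 to 234 CPM in BLM+HBO, with 226 ± 17.8 CPM in BLM (SD, n = 4) against 222 ± 11.2 CPM in BLM+HBO (SD, n = 3). The 95% confidence interval of its LFC ran from -0.26 to 0.21, and that of Keap1 from -0.26 to 0.18. These transcripts were among the steadiest of the list, and for each of them the highest mouse was 1.19 times the lowest. Bach1 (a repressor at the same elements) had an LFC of -0.04 (SE 0.16) and Sqstm1 (p62, which binds Keap1) one of -0.12 (SE 0.12). Sesn1 and Sesn2, stress-induced proteins that restrain growth signalling, had 0.18 (SE 0.21) and 0.20 (SE 0.13). Genes on the opposite strand cover 17.3% of the Sqstm1 and 10.9% of the Keap1 exon bases. Transcript levels give no measure of NRF2 protein.

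Each mouse was also followed over the whole list. BLM 3 was the highest mouse for 13 members, and BLM 1 and BLM+HBO 3 were the lowest for 12 each. BLM+HBO 3 lay below the lowest BLM mouse for 15 members and above the highest for 9. The same counts were 10 and 9 for BLM+HBO 1 and 7 and 3 for BLM+HBO 2, which thus lay outside the range of BLM least often. No share over all genes was taken for single mice. These counts therefore have no background and cannot be read as particular to the members. For 22 members the highest mouse was less than 1.5 times the lowest, and for 7 it was more than 2 times: Cat, Gpx2, Gpx3, Slc7a11, Nqo1, Mt1 and Mt2. The spread on the log2 scale was larger in BLM+HBO than in BLM for 19 of 40 members.

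**Figure D5:**
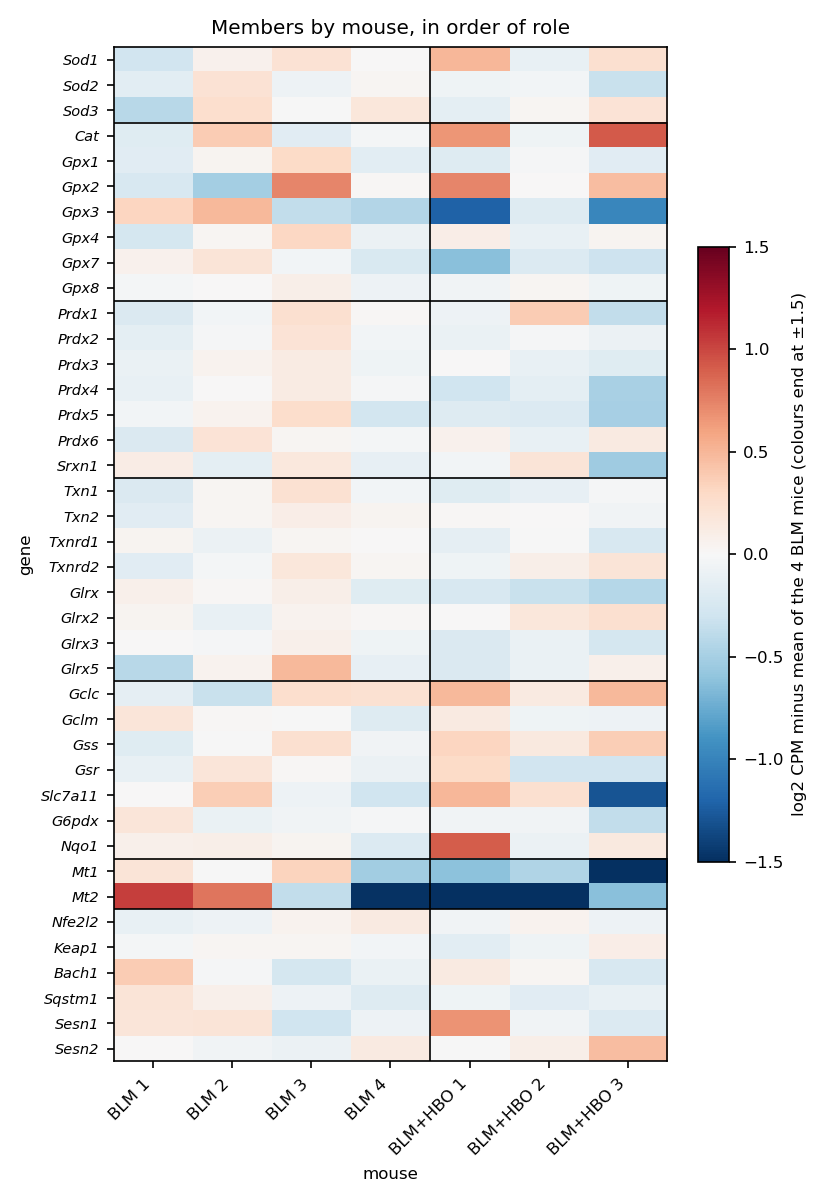
Log2 CPM of each member in each mouse minus the mean of the 4 BLM mice, by role, with colours ending at 1.5 in both directions. Cat and Gpx3 stand out in BLM+HBO 1 and 3, Mt1 is low in BLM 4 and in the BLM+HBO mice, and the rows of Nfe2l2 and Keap1 are nearly blank.

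Further genes of the pathway were counted from 2 lists. The first held 43 other redox genes, of which 40 passed the filter on low counts and 2 (5%) were at unadjusted P below 0.05, both lower in BLM+HBO, against 10.7% of all genes in either direction and 5.54% in the lower one. The median LFC was -0.03. Hmox1 (heme oxygenase 1, an NRF2 and Bach1 target) was lower in every BLM+HBO mouse than in every BLM mouse, at 216, 211, 119 and 133 CPM against 64.8, 78.2 and 62.8 CPM. Its LFC was -1.31 (SE 0.22), with an adjusted P of 0.423 by edgeR and 0.00010 by DESeq2. Of the 8 monocyte and macrophage markers, 5 were lower, with sums of 1114 to 1608 CPM in BLM and 688 to 1099 CPM in BLM+HBO, and their part in Hmox1 was not tested. Nxn (nucleoredoxin, a thioredoxin-like enzyme) was at 46.4, 46.2, 40.2 and 39.2 CPM against 30.0, 36.3 and 35.4 CPM, an LFC of -0.34 (SE 0.12) that lost its call without BLM+HBO 1 (-0.26). Mtf1 (0.04) and Slc30a1 (0.05), the metal-sensing factor and a zinc exporter under its control, had LFCs near 0.

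The other list held 17 genes for enzymes that make superoxide or hydrogen peroxide. Of the 13 that passed the filter, none was at unadjusted P below 0.05 by edgeR or by DESeq2. Cybb and Cyba (subunits of the phagocyte NADPH oxidase) had LFCs of 0.06 (SE 0.19) and -0.27 (SE 0.14). Nox4 (an NADPH oxidase known from fibroblasts) had -0.29 (SE 0.25). Noxa1 (an activator of NADPH oxidase) was the single gene of the 13 (7.69%) whose groups did not overlap, against 8.77% of all genes. It was at 0.991, 1.01, 0.714 and 0.895 CPM in BLM 1 to 4 and at 1.12, 1.29 and 2.32 CPM in BLM+HBO 1 to 3. These values rest on 13 to 62 reads per mouse, and the LFC was 0.81 (SE 0.37) with an adjusted P of 0.471 (edgeR). Nox1 was below the filter, with 0, 1, 1 and 0 reads in BLM 1 to 4 and 24, 6 and 6 reads in BLM+HBO 1 to 3. These 5 genes were named after their values were seen.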

How the data were processed

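The authors made paired-end RNA libraries (NEBNext Ultra, NovaSeq) and used Trim Galore for trimming, Hisat2 for mapping to GRCm38 and featureCounts, left at its defaults, for counting. The deposited values were raw counts, not normalized, and the annotation release is not given in the sources used here. These defaults ignore strand and drop reads with several mapping positions or with more than 1 overlapping gene. Symbols came from GENCODE vM21 (55141 of 55401 identifiers). Every column of values was assigned to a mouse, and each mouse was 1 replicate.

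Low counts were removed by filterByExpr (10 as minimum count, 15 as minimum total), and the rest scaled by TMM (factors 0.964 to 1.036) and tested with edgeR 4.0.16 (quasi-likelihood, no robust option, log prior count 2) under R 4.3.3, with BLM as the reference, over all 17465 genes. Standard errors were derived from the F statistic. The thresholds were unadjusted P below 0.05, with and without a fold change above 1.5, and Benjamini-Hochberg adjusted P below 0.05. TPM used exon lengths. Alternatives were DESeq2 1.42.0, limma-trend (limma 3.58.1), RLE and upper-quartile factors, no filter, robust fitting, a replicate block and each mouse left out. The tests were tested on simulated data. Promoters came from RefSeq (GRCm38.p6). Per-mouse values were given for members at unadjusted P below 0.05, members whose groups did not overlap and the 5 members with the highest TPM, and for a few others chosen after their values were seen. The members and lists were chosen with earlier results of these data known.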

Additional observations from a re-analysis of the deposited data

Results flagged for a closer look

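Nqo1 (quinone reductase) had a log2 CPM of 2.82 in BLM 4, below the values of 3.07 to 3.11 of the other BLM mice. This gap made up 0.871 of the distance between the lowest and the highest BLM mouse, more than Dixon's 95% limit for 4 samples allows. It was the single case among 42 sets of values checked, and chance alone flags about 1 set in 20. On the linear scale, BLM 4 was at 6.95 CPM and the other BLM mice were at 8.29 to 8.51 CPM.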

How the results depend on the processing

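Of 42 genes followed (the members, Hmox1 and Nxn), 36 kept the sign of their log2 fold change under the 7 settings that kept every mouse. The sign turned for Gpx4 under limma-trend (0.012) and upper-quartile factors (0.021), for Prdx1 under DESeq2 and RLE factors (both -0.0021), limma-trend (-0.023), no filter (-0.0057) and the replicate block (-0.015), for Txn2 under upper-quartile factors (0.0096) and the block (0.0045), for Gclm (0.021) and Slc7a11 (0.0039) under upper-quartile factors and for Nfe2l2 under the block (0.021). With TMM each of these 6 genes was near 0, at most -0.03 away (Nfe2l2). Upper-quartile factors called 8 members, 2 higher and 6 lower, where TMM called 1 and 6. The share of all genes called was 10.5% with upper-quartile factors and 10.7% with TMM. Testing every gene with a read, edgeR called 1 member, Mt1, and 387 of all genes at adjusted P below 0.05. At unadjusted P below 0.05 it called 3008 of all genes (9.14%) and 1 oxidant-producing gene. On the filtered genes, DESeq2 called 128 genes after adjustment. Upper-quartile factors also called 1 oxidant-producing gene. The cause of these shifts was not tested.

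The mice of both groups carry numbers, and same-numbered mice deviated together with correlations of -0.0080, -0.0660 and 0.161, so the numbers were not taken as pairs. BLM 1 correlated best with BLM+HBO 2 (0.165). With the replicate block 7 members were called, 5 of them the same, with Cat and Prdx4 lost and Gclc and Prdx5 gained. The block called 11.3% of all genes, among them 4 other redox genes and 1 oxidant-producing gene.

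With each mouse left out in turn, the calls were 3 to 10 members and 1017 to 2851 of all genes (5.7% to 15.9%). Of the members, 1 to 4 also passed the fold change. The share of all genes past the fold change was not counted for these fits. After adjustment, 0 members and 0 to 267 of all genes were called. At unadjusted P below 0.05, 2 to 5 other redox genes and 0 to 2 oxidant-producing genes were called. The sign turned at least once for 16 genes, with these ranges of log2 fold change: Bach1 -0.12 to 0.11, Gclm -0.077 to 0.057, Glrx5 -0.24 to 0.076, Gpx4 -0.083 to 0.11, Gpx8 -0.065 to 0.0023, Gsr -0.29 to 0.023, Keap1 -0.12 to 0.017, Nfe2l2 -0.070 to 0.021, Prdx1 -0.23 to 0.15, Prdx2 -0.12 to 0.0034, Prdx6 -0.046 to 0.10, Sesn1 -0.14 to 0.33, Slc7a11 -0.36 to 0.35, Sod3 -0.11 to 0.10, Srxn1 -0.27 to 0.074 and Txn2 -0.067 to 0.020. Mt2 rests on 7 to 69 reads per mouse.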

Other observations

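Nnt, which makes NADPH in mitochondria and is known to be deleted in part in the substrain C57BL/6J, was at 0.225 to 0.769 CPM in BLM and 0.431 to 0.639 CPM in BLM+HBO. Nnt has a further identifier in the counts, and these values are from the identifier with the most reads. Reads shared between identifiers could have been dropped, which was not tested, so the level of Nnt is uncertain. The substrain of these mice is not given in the sources used here. Txnip, the thioredoxin-binding protein, was at 410 to 614 CPM in BLM and at 921, 504 and 478 CPM in BLM+HBO 1 to 3. Its log2 fold change of 0.31 (standard error 0.24) did not pass the edgeR test. Selenop, the plasma selenium carrier, was at 423 to 669 CPM in BLM and 404 to 618 CPM in BLM+HBO. Its highest BLM mice were BLM 1 and 2, as for Gpx3. These genes were picked after their values were seen.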
